A study of Mus musculus with 8 samples.

Results

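The ribosome biogenesis and nucleolar genes described here are 44 listed genes whose products make, modify or assemble the ribosome in the nucleolus. They form a list of gene symbols grouped by function and drawn up with earlier results of these data known, with no threshold on measured values, and all 44 were found among the 55421 gene identifiers of the table and passed the filter on low counts. The measurements came from mouse E14 embryonic stem cells of 129/Ola background that carried a knockout of the miR-290-295 microRNA cluster in every group, the controls included. Cells were kept on gelatin in serum with LIF at 100 U/ml and received 5 nM of a siPOOL (many siRNAs mixed, all directed at the same transcript) for 36 hours. The groups were siTfap4, siWiz and siZic2, each named for the transcription factor gene targeted, and siNeg, the negative control siPOOL, with 2 libraries each (8 in all) that the series describes as biological duplicates. All groups thus shared the knockout, the transfection reagent and the harvest time, and the number of knockout clones, an untransfected culture and cells with the microRNA cluster intact were not analysed here.

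Ribosome production starts in the nucleolus, where RNA polymerase I copies the ribosomal DNA into a long precursor RNA. Small nucleolar particles then modify that RNA, box C/D particles by methylation and box H/ACA particles by pseudouridylation, while a large set of helicases, nucleases and scaffold proteins cuts it and folds it into the small and the large ribosomal subunit. Embryonic stem cells divide quickly and are known for prominent nucleoli and high ribosome output, and MYC proteins are known activators of many of these genes. Tfap4 encodes AP4, a basic helix-loop-helix factor that binds E-box sequences and is itself known as a MYC target.

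Libraries were read from transcript ends (QuantSeq 3' FWD), so levels are given as CPM, which are counts divided by library size after TMM adjustment, and are compared between libraries for the same gene, not between genes. Total counts ranged from 8326675 to 13788856 per library, lowest in the 2 siTfap4 libraries, and the 44 genes together took 1.46% to 1.62% of the counts of a library. The smallest count of any of them was 52, for Gar1 in siTfap4 replicate 1. Tfap4 itself stood at 12 and 15.7 CPM in siTfap4 and at 33.4 and 37.1 CPM in siNeg (log2 fold change -1.34, SE 0.25, adjusted p = 0.00417), whereas Wiz in siWiz (16.8 and 19.7 against 49.9 and 46.1 CPM) and Zic2 in siZic2 (2.15 and 1.83 against 4.49 and 2.21 CPM) were lower without passing the test. Pluripotent stem cell markers summed to 3115 to 3670 CPM in every library. In siTfap4 against siNeg, however, 3 of the 10 were called higher (Pou5f1 at 1.02, Lin28a at 0.81 and Dppa4 at 0.78 on the log2 scale) and Nanog was called lower (-1.48). Over all tested genes, 4.24% were called higher and 11.7% lower in that comparison. The part of these markers in the results below was not tested. Markers of primitive endoderm summed to 21.3 to 55.1 CPM, of trophectoderm to 153 to 287, of neural cells to 74.3 to 104 and of fibroblasts to 6.80 to 11.7. In bulk RNA, fewer cells of a type and less RNA per cell cannot be told apart.

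A small number of the 44 genes changed strongly in siTfap4 against siNeg, and most did not pass the test. Gar1, Nob1, Ddx18, Wdr75 and Fbl fell, and Rrp12 and Ftsj3 rose (edgeR quasi-likelihood test, Benjamini-Hochberg adjustment over the 14647 genes tested, threshold 0.05). That is 2 of 44 higher and 5 of 44 lower, against 4.24% of all tested genes called higher and 11.7% called lower, so the share of genes called was near the background. In GENCODE M21 (GRCm38) the genes called lower lie at chr3:129824912-129831396 (Gar1), chr8:107412486-107425051 (Nob1), chr1:121553835-121567989 (Ddx18), chr1:45795166-45823619 (Wdr75) and chr7:28169710-28179269 (Fbl). Those called higher lie at chr19:41862851-41896173 (Rrp12) and chr11:106249142-106256079 (Ftsj3). The call counts leaned on single libraries. Without siTfap4 replicate 1 they were 0 higher and 3 lower, and over all genes 6 higher and 498 lower in place of 621 and 1709. The count of genes called higher was also 0 without siNeg replicate 1 (55 over all genes) and without siZic2 replicate 1, 1 without siNeg replicate 2, siZic2 replicate 2 or siWiz replicate 2, and 4 without siTfap4 replicate 2.

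The middle of the list lay slightly above no change, with a median log2 difference of 0.15 against 0.01 for all genes, and 27 of the 44 values were positive. The 2 siTfap4 libraries lay above both siNeg libraries for 17 genes and below both for 13, against 29.6% and 29.5% of all tested genes. The large subunit genes had the highest median, 0.51 over 11 genes, and 7 of the 11 were above both siNeg libraries. Box C/D genes had a median of -0.28 over 3 genes, and the abundant nucleolar proteins a median of -0.15 over 4 genes. Individual genes spread far more widely than these medians, from -3.17 for Gar1 to 1.04 for Rrp12.

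**Figure D1:**
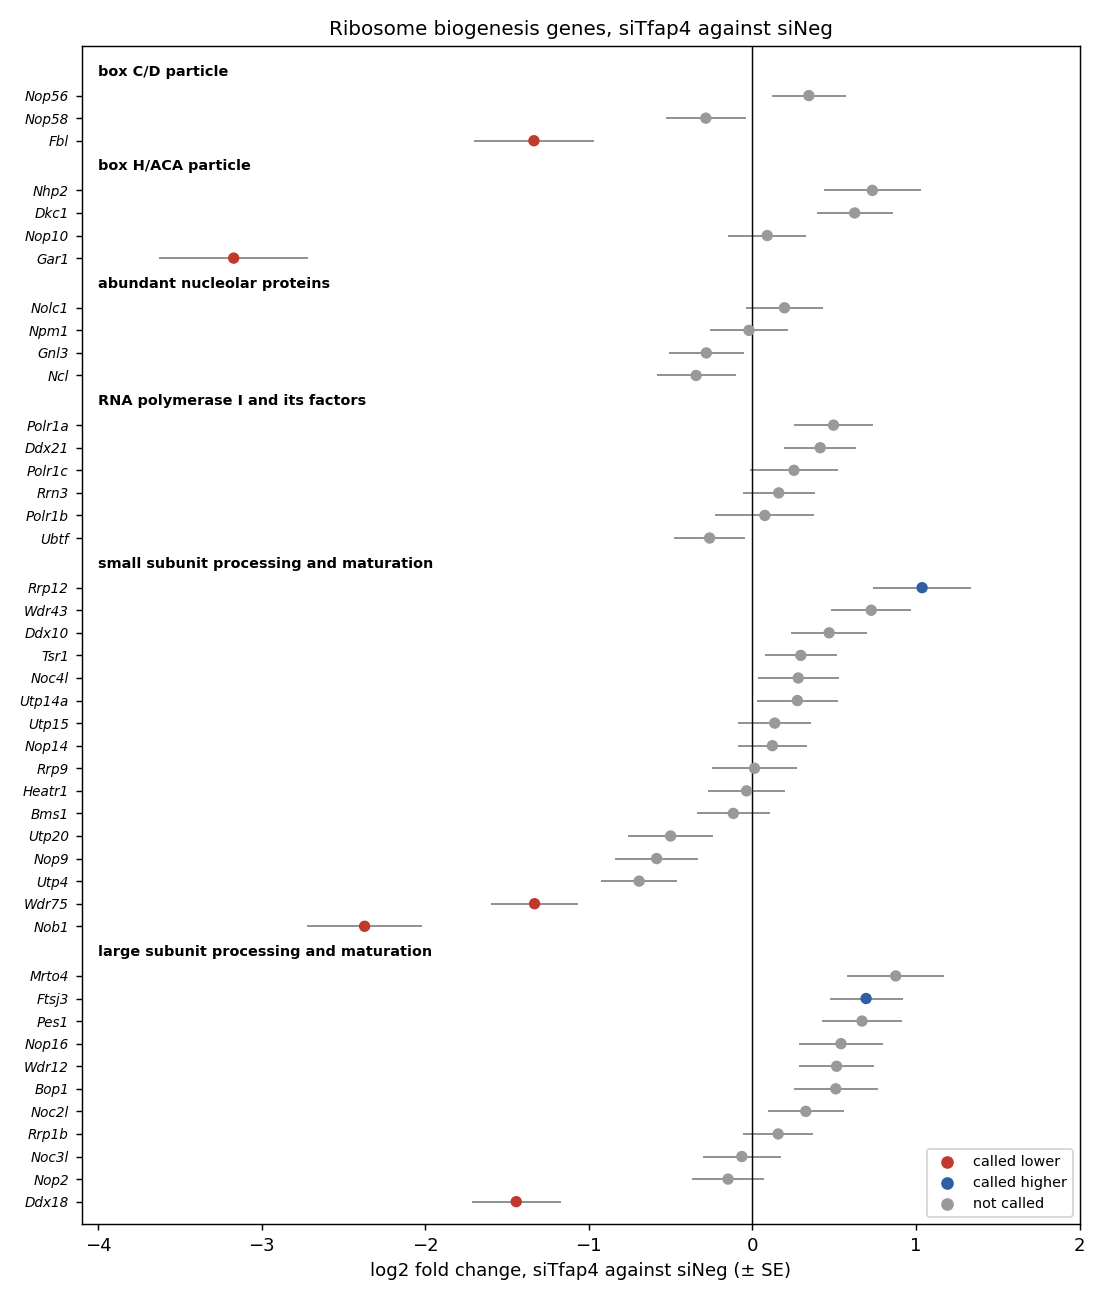
Log2 fold changes in siTfap4 against siNeg for the 44 genes, grouped by role; points are estimates, bars are ± SE, and colour marks the call. Gar1 (-3.17) and Nob1 (-2.37) lie far to the left of the other genes, and the 2 genes called higher, Rrp12 (1.04) and Ftsj3 (0.69), lie to the right.

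Promoter windows from RefSeq (GRCm38.p6), 300 bases long with 250 before the annotated start and 50 after it, were found for 40 of the 44 genes. Fbl, Npm1, Bop1 and Rrp12 had none, so the called genes Fbl and Rrp12 could not be searched. The sequences of Gar1, Nob1 and Wdr75 are shown because these 3 genes fell and have transcript ends almost unshared with other genes, and that of Pes1 because it holds both E-box motifs searched. They were chosen after the values were seen. The Gar1 window is chr3:129831347-129831646 on the minus strand, the Nob1 window chr8:107424989-107425288 on the minus strand, the Wdr75 window chr1:45794916-45795215 on the plus strand and the Pes1 window chr11:3963725-3964024 on the plus strand. Each is printed 5′ to 3′ along its gene, and capitals mark CAGCTG, an E-box form bound by AP4, and CACGTG, the form bound by MYC and MAX; both motifs are the same on either strand and do not overlap each other here.
Gar1: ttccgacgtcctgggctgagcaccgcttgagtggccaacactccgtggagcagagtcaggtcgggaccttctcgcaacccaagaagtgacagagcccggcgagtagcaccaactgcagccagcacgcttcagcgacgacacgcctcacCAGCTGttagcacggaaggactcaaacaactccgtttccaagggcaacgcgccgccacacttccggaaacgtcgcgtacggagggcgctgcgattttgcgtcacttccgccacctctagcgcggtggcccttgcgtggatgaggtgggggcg
Nob1: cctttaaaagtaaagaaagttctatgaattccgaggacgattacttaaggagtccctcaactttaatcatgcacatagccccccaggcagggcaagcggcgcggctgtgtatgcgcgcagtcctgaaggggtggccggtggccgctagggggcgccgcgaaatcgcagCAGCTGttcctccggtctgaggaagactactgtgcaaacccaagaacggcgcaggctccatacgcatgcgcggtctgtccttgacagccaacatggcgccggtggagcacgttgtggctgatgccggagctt
Wdr75: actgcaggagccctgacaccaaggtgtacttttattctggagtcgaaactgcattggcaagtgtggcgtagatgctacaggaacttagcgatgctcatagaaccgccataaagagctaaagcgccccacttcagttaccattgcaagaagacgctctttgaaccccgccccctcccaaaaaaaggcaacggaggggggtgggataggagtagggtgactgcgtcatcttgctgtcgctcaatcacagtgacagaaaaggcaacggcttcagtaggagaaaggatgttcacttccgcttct
Pes1: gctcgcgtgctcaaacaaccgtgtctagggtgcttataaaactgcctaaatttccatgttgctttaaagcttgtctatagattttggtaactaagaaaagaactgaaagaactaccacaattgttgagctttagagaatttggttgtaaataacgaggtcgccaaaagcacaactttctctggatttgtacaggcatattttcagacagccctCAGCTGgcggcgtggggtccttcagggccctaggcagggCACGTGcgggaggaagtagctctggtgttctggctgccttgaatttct

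CAGCTG began 102 bases before the start in Gar1, 82 before in Nob1 and 37 before in Pes1, and neither motif was in the Wdr75 window. Over the list, CAGCTG was present in 8 of 40 genes with a window (20%, against 18.3% of 27025 genes with windows of the same length): Gar1, Nob1, Pes1, Nop14, Rrp9, Ddx21, Ubtf and Noc3l. CACGTG was present in 7 of 40 (17.5%, against 8.09%): Nop2, Utp4, Utp20, Pes1, Tsr1, Rrn3 and Wdr43. In siTfap4 against siNeg the log2 differences of the 8 genes with CAGCTG were -3.17 for Gar1, -2.37 for Nob1, -0.26 for Ubtf, -0.06 for Noc3l, 0.01 for Rrp9, 0.12 for Nop14, 0.41 for Ddx21 and 0.67 for Pes1. They thus lay on both sides of 0, and only Gar1 and Nob1 were called. The 7 genes with CACGTG ran from -0.69 for Utp4 to 0.73 for Wdr43, and none of them was called. A match is a description of the letters in the window and shows no binding.

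In the box H/ACA particle, Gar1 fell while its partners did not. Gar1 encodes a core protein of the particle. It was measured at 6.45 and 21.6 CPM in siTfap4, against 145 and 108 in siNeg, with 140 and 71.8 in siWiz and 139 and 152 in siZic2. Both siTfap4 libraries lay far below the other 6, which overlapped among themselves. The decrease against siNeg was 9.0-fold (log2 -3.17, SE 0.46, adjusted p = 0.00110). Its size differed between the siTfap4 libraries, with a log2 value of -2.56 without replicate 1 (adjusted p = 0.00670) and -4.30 without replicate 2, and the call held in every alternative run.

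Dkc1 encodes the pseudouridine synthase of the same particle, which also belongs to telomerase. Its levels were 1123 and 949 CPM in siTfap4, against 682 and 662 in siNeg, with 565 and 665 in siWiz and 562 and 665 in siZic2. The siTfap4 libraries were above all others, with a log2 difference of 0.62 (SE 0.23, adjusted p = 0.0819) against siNeg that did not pass the test. Against siWiz (0.75, SE 0.23, adjusted p = 0.0450) and siZic2 (0.76, SE 0.23, adjusted p = 0.0331) Dkc1 was called higher. Exons of Dkc1 overlap Mpp1 on the opposite strand, whether counting used strand is not given in the sources, and Mpp1 itself, which was not called against siNeg (log2 -0.69), had 507 and 410 counts with siNeg and 188 and 233 with siTfap4. Nhp2, which binds the guide RNA, stood at 236 and 216 CPM in siTfap4 against 93.3 and 179 in siNeg (log2 0.73, adjusted p = 0.107; called with GC content and length corrected for, at 0.77), and the small core protein gene Nop10 differed by 0.09. The 4 genes of this particle therefore did not move as a unit, with 1 called lower and none called higher against siNeg. Exons of Nhp2 overlap Rmnd5b on the opposite strand. Opposite-strand overlaps also occur in further listed genes, among them Nop56, Nop9, Bop1, Wdr12, Tsr1 and Noc2l.

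Of the box C/D core, only Fbl, the gene of the methyltransferase fibrillarin, passed the test. Its levels were 16.7 and 39.3 CPM in siTfap4, against 50.5 and 91.2 in siNeg, with 88.6 and 66.4 in siWiz and 71.7 and 66.0 in siZic2. The siTfap4 libraries were below the other 6, and siNeg replicate 1 came closest to them. Fbl fell 2.52-fold against siNeg (log2 -1.34, SE 0.37, adjusted p = 0.0278). The call was lost without siTfap4 replicate 1 (log2 -0.86, adjusted p = 0.207) and without siNeg replicate 2 (-0.86, adjusted p = 0.164), and the value was -2.09 without siTfap4 replicate 2. Of the 50-base words in the last 300 bases of a Fbl transcript, 54.6% also occur in other genes, among them the pseudogene Gm5812 (1 and 6 counts in siTfap4, 20 and 35 in siNeg). The scaffold proteins that hold the particle together showed smaller differences. Nop56 stood at 337 and 303 CPM in siTfap4 and 260 and 244 in siNeg (log2 0.34), and Nop58 at 683 and 916 against 926 and 1021 (log2 -0.28). Neither passed the test. All of the 50-base words at the end of a Nop56 transcript (100%) also occur in other genes, the highest share of the 44, and Nop56 exons contain small nucleolar RNA genes on the same strand.

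Among the 16 genes of small subunit processing, Nob1 and Wdr75 fell, Rrp12 rose and 13 were not called. Nob1 encodes the endonuclease that makes the last cut to the small subunit RNA. It stood at 7.56 and 10.8 CPM in siTfap4, against 53.5 and 41.5 in siNeg, with 49.5 and 23.1 in siWiz and 49.0 and 54.1 in siZic2. The siTfap4 libraries were the lowest 2 of the 8 and were close to each other, and siWiz replicate 2 was the lowest of the rest. The decrease was 5.17-fold against siNeg (log2 -2.37, SE 0.35, adjusted p = 0.00129) and kept its call in every alternative run, between -2.66 and -2.15.

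Wdr75, a WD-repeat protein of the subcomplex that joins ribosomal DNA transcription to processing, had 51.1 and 80.8 CPM in siTfap4, against 183 and 149 in siNeg, with 179 and 136 in siWiz and 188 and 194 in siZic2. The 2 siTfap4 libraries were below all others. The decrease was 2.52-fold against siNeg (log2 -1.33, SE 0.26, adjusted p = 0.00592). Without siTfap4 replicate 1 it was -1.05 and missed the threshold (adjusted p = 0.0612). Other genes of that subcomplex gave differing values. Utp4 stood at 49.2 and 68.8 CPM in siTfap4 and 88.6 and 102 in siNeg (log2 -0.69, SE 0.23, adjusted p = 0.0588), with 107 and 100.4 in siWiz and 94.5 and 94.8 in siZic2. Wdr43 stood at 955 and 765 CPM in siTfap4 and 453 and 587 in siNeg (log2 0.73, SE 0.24, adjusted p = 0.0588), with 489 and 611 in siWiz and 484 and 480 in siZic2. In both genes the siTfap4 libraries lay outside the range of the other 6, on opposite sides, and exons of Wdr43 overlap an opposite-strand gene. The remaining genes of the subcomplex, Utp15 (log2 0.14) and Heatr1 (-0.04), were near 0.

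Rrp12, whose product is needed for maturation and export of the small subunit precursor, stood at 108 and 55.3 CPM in siTfap4, against 36.2 and 43.2 in siNeg, with 31.5 and 40.6 in siWiz and 37.0 and 31.6 in siZic2. Both siTfap4 libraries were above the other 6, but replicate 1 was far above replicate 2. The rise was 2.05-fold (log2 1.04, SE 0.30, adjusted p = 0.0338). It fell short of the threshold without siTfap4 replicate 1 (log2 0.47, adjusted p = 0.378), siNeg replicate 1 (0.93, adjusted p = 0.176), siNeg replicate 2 (1.16, adjusted p = 0.0638) or siZic2 replicate 1 (1.05, adjusted p = 0.0504).

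Nop9, an RNA-binding protein of the early small subunit precursor, was not called against siNeg (log2 -0.59, SE 0.25, adjusted p = 0.126). Its levels were 45.9 and 60.3 CPM in siTfap4, against 63.7 and 95.7 in siNeg, with 102 and 96.5 in siWiz and 74.8 and 78.6 in siZic2. The siTfap4 libraries were the lowest and the siWiz libraries the highest, and Nop9 was called lower against siWiz (-0.90, SE 0.25, adjusted p = 0.0305). With GC content and length corrected for, Nop9 (-0.92) and Ddx10 (0.83) were called against siNeg too. Utp20, a large repeat protein of the processome, differed by -0.50, and the helicase gene Ddx10 by 0.47. The GTPase gene Bms1 (-0.12) and the related late factor Tsr1 (0.30) lay on opposite sides of 0. Noc4l (0.28) and its partner Nop14 (0.12), Utp14a (0.27) and Rrp9 (0.01), a protein of the box C/D particle that guides early cleavage, completed the group without a call.

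Of the 11 genes of large subunit processing, Ftsj3 rose, Ddx18 was called lower and 9 were not called, although 8 of the 11 values were positive. Ftsj3, a methyltransferase-like processing factor, stood at 365 and 308 CPM in siTfap4, against 209 and 207 in siNeg, with 185 and 228 in siWiz and 201 and 193 in siZic2. The siTfap4 libraries were above the other 6. The rise was 1.62-fold (log2 0.69, SE 0.22, adjusted p = 0.0492). The call was lost in 10 of 18 alternatives, among them every library left out except siTfap4 replicate 2, with values between 0.56 and 0.80.

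Ddx18, a helicase gene, had 49.3 and 81.6 CPM in siTfap4, against 168 and 189 in siNeg, with 211 and 160 in siWiz and 155 and 185 in siZic2. Both siTfap4 libraries were well below the other 6, and as counted Ddx18 fell 2.72-fold (log2 -1.44, SE 0.27, adjusted p = 0.00450). Its transcript end shares 51.8% of its 50-base words with other genes, among them the processed pseudogene Gm16433, which moved the other way: 145 and 137 CPM in siTfap4 against 85 and 52.0 in siNeg, 43.1 and 75.4 in siWiz and 52.6 and 73.5 in siZic2. Gm16433 was itself called higher (log2 1.04, adjusted p = 0.0376). The 2 genes summed to 206 ± 16.9 CPM (SD, n = 2) in siTfap4 and 247 ± 8.30 in siNeg. With the counts of Gm16433 added to Ddx18, a step chosen after seeing the data, the log2 difference was -0.26 (SE 0.22, adjusted p = 0.446), so the call for Ddx18 depended on how reads were divided between it and Gm16433. How reads matching both were counted is not given in the sources used.

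The 3 genes of the complex of Pes1, Bop1 and Wdr12, which acts in large subunit RNA processing, all had positive values without a call against siNeg. Pes1 stood at 215 and 155 CPM in siTfap4, against 98.2 and 134 in siNeg, with 113 and 130.4 in siWiz and 105 and 108 in siZic2 (log2 0.67, SE 0.25, adjusted p = 0.0793). Its siTfap4 libraries were above the other 6, and its exons overlap an opposite-strand gene. Bop1 differed by 0.51 with overlapping groups, and Wdr12 by 0.51 with groups that did not overlap, and 48.2% of the end words of Wdr12 occur in other genes. Mrto4, a factor that occupies the site of the ribosomal stalk during assembly, stood at 111 and 114 CPM in siTfap4, against 49.8 and 72.9 in siNeg, with 46.7 and 73.0 in siWiz and 45.7 and 73.3 in siZic2 (log2 0.88, SE 0.30, adjusted p = 0.0591). Here the siTfap4 libraries nearly coincided, and the second library was the higher one in each of the other groups. Nop16 stood at 79.2 and 85.5 CPM in siTfap4, against 45.9 and 67.4 in siNeg, with 56.2 and 65.8 in siWiz and 39.9 and 55.7 in siZic2 (log2 0.54, SE 0.26, adjusted p = 0.163). Its siTfap4 values too lay above those of the other 6 libraries. Noc2l (0.33) and its partner Noc3l (-0.06), Rrp1b (0.16) and the RNA methyltransferase gene Nop2 (-0.15) were closer to 0.

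**Figure D2:**
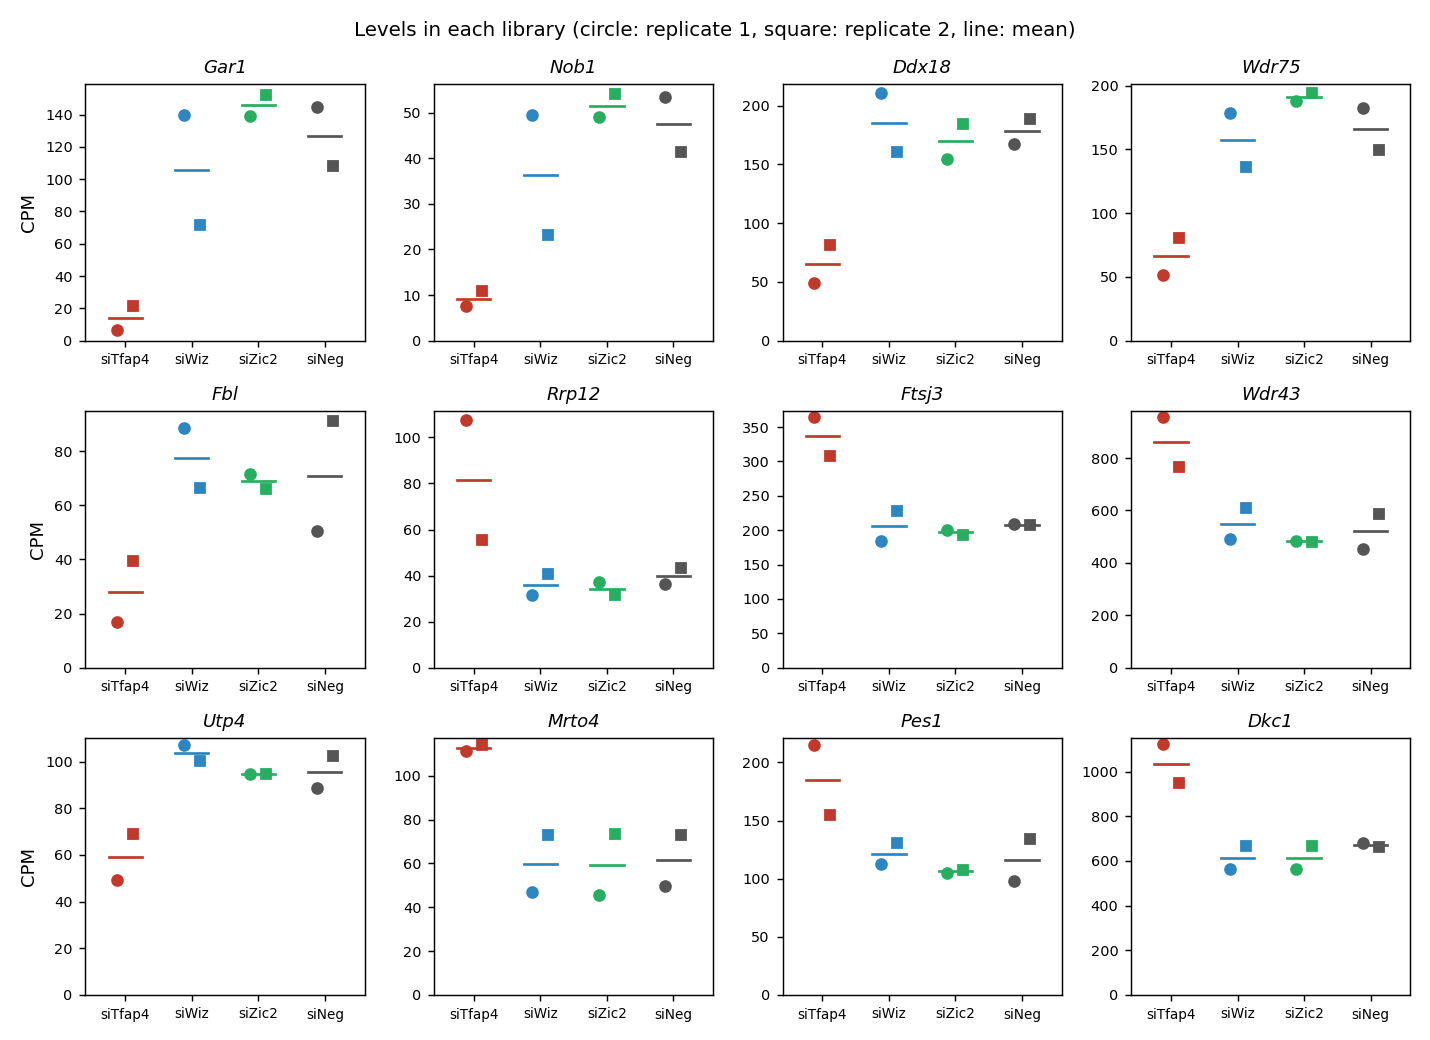
CPM in each of the 8 libraries for the 12 genes with the smallest p in siTfap4 against siNeg; circles are replicate 1, squares replicate 2 and lines the means of 2 libraries. In every panel both siTfap4 libraries lie outside the range of the siNeg libraries, and for Rrp12 replicate 1 (108 CPM) lies far from replicate 2 (55.3 CPM).

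None of the 6 genes of RNA polymerase I and its factors passed the test in any of the 6 comparisons as fitted. In siTfap4 against siNeg none had an unadjusted p under 0.05, whereas 4745 of all 14647 tested genes did. With only 6 genes, this is not read as particular to the group. Polr1a, the largest subunit, stood at 179.5 and 132 CPM in siTfap4 and 109 and 112 in siNeg (log2 0.50, SE 0.24, adjusted p = 0.175). Ddx21, a helicase linked to ribosomal RNA transcription and processing, stood at 346 and 322 CPM against 279 and 222 (log2 0.41, SE 0.22, adjusted p = 0.213), and was called with GC content and length corrected for (0.69). Both had siTfap4 libraries above both siNeg libraries. Values for Polr1b (0.08), Polr1c (0.25, a subunit shared with RNA polymerase III) and Rrn3 (0.16, which brings the polymerase to its promoter) came from overlapping groups. Ubtf, which binds the ribosomal DNA, was the only one with a negative value (-0.26), at 129 and 115 CPM against 141 and 150.5.

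The 4 abundant nucleolar proteins also gave no call. In siTfap4 against siNeg 0 had an unadjusted p under 0.05, to be read against the same 4745 of 14647 tested genes. With only 4 genes, this too is not read as particular to them. Ncl (nucleolin, which binds precursor RNA) stood at 4061 and 3893 CPM in siTfap4 and 4586 and 5511 in siNeg (log2 -0.34, SE 0.24), the siTfap4 libraries below the others. Npm1 (nucleophosmin, a chaperone of assembly) stood at 2993 and 3004 CPM against 2760 and 3326 (log2 -0.02). Gnl3, the gene of nucleostemin, a GTPase named for its level in stem cells, had 228 and 305 CPM against 331 and 317 (log2 -0.28), and Nolc1, a chaperone of the small nucleolar particles, differed by 0.20. Of these 4 genes, Npm1 shares 38.6% of the words at its transcript end with other genes. Elsewhere in the list, Polr1b shares 40.6% and Mrto4 25.5%.

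Comparisons of siTfap4 with the other siPOOLs use the same siTfap4 libraries, so they are not independent of the comparison with siNeg, and their values are given side by side. Against siWiz, 3 of 44 genes were called higher and 7 lower, against 4.66% and 10.4% of all tested genes. Against siZic2, 7 were called higher and 6 lower, against 8.41% and 14.7%. The 7 genes called against siNeg were called in all 3 comparisons. Gar1 gave -2.91 against siWiz and -3.37 against siZic2, Nob1 -1.98 and -2.49, Wdr75 -1.26 and -1.53, Ddx18 -1.50 and -1.37, Fbl -1.47 and -1.30, Rrp12 1.18 and 1.25, and Ftsj3 0.70 and 0.77. Nob1 against siWiz moved to -1.33 without siWiz replicate 1, where the adjusted p was 0.0488, and Wdr75 against siWiz lost its call without siTfap4 replicate 1 (adjusted p = 0.0898) or siWiz replicate 1 (adjusted p = 0.105).

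In all, 14 of the 44 genes were called in at least 1 of these 3 comparisons. The shares of all tested genes called in at least 1, or in all 3, were not worked out. The 14 genes, and the 7 called in all 3, are therefore not read as particular to the list. Utp4 was called lower against siWiz (log2 -0.81, SE 0.23, adjusted p = 0.0334) and siZic2 (-0.68, SE 0.23, adjusted p = 0.0499), and Dkc1 was called higher against both. Called against siZic2 alone were Wdr43 (0.84, SE 0.24, adjusted p = 0.0273), Pes1 (0.80, SE 0.25, adjusted p = 0.0334), Mrto4 (0.92, SE 0.30, adjusted p = 0.0385) and Nop16 (0.79, SE 0.26, adjusted p = 0.0427), and Nop9 was called against siWiz alone. Each call of these last 7 genes was lost without siTfap4 replicate 1 and without replicate 1 of the group compared. The counts of genes called in each direction fell without siTfap4 replicate 1 and without replicate 1 of the group compared. Leaving out either siZic2 library also lowered the counts against siZic2, and the count called higher against siWiz. Against siNeg the count over all genes fell as well without siTfap4 replicate 1. Matching counts over all genes against siWiz and siZic2 are not given here, so these falls are not read as particular to the list.

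With siWiz and siZic2 none of the 44 genes was called against siNeg (0 higher and 0 lower, against 0% of all tested genes in either direction). DESeq2 likewise called 0. At an unadjusted p under 0.05 the number was also 0 in both. Over all 14647 tested genes it was 266 with siWiz and 86 with siZic2, so the absence is not read as particular to the list. In siWiz the log2 differences ran from -0.39 for Nob1 to 0.31 for Nop9 with a median of 0.01, and 5 genes lay above and 6 below both siNeg libraries (12.3% and 12.8% of all tested genes). The smallest p was that of Noc3l, at 24.8 and 20.4 CPM in siWiz against 30.4 and 27.9 in siNeg (log2 -0.37, SE 0.24, adjusted p = 1.00), followed by Nop9 (0.31, SE 0.25, adjusted p = 1.00). Both had groups that did not overlap.

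In siZic2 the differences ran from -0.30 for Noc4l to 0.20 for Gar1. The median was -0.08, 36 of 44 values were negative, and 10 genes lay below and 2 above both siNeg libraries (11.7% and 12.1% of all tested genes). Noc4l stood at 58.8 and 58.2 CPM in siZic2 against 64.0 and 80.3 in siNeg (log2 -0.30, SE 0.25, adjusted p = 1.00), and Tsr1 at 87.5 and 103.5 against 104.5 and 125 (-0.27, SE 0.22, adjusted p = 1.00). In both genes the siZic2 libraries were below the siNeg libraries. The number of positive values moved from 8 to 10 with library totals alone and to 14 when GC content and length were corrected for. The lean towards negative values thus kept its direction and changed in size with the processing. The 2 siNeg libraries differed from each other by more, with a median log2 value of 0.17 over the 44 genes (replicate 2 minus replicate 1). All 44 values come from the same few libraries, so the lean is not read as an effect of the siPOOL. Over all tested genes, 49.6% of the values were positive as fitted.

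The 95% intervals bound what could have been missed. They lay within a log2 difference of 1 in either direction for 42 of 44 genes in siWiz and for 43 of 44 in siZic2. The widest reached -1.13 for Gar1 in siWiz and 1.08 for Gar1 in siZic2, so a decrease of Gar1 by the size seen in siTfap4 lies outside both. A p that misses the threshold does not show that the groups were alike. Between siWiz and siZic2 none was called (0 of 44, against 0% of all tested genes). At an unadjusted p under 0.05 the number was 0, against 384 of all 14647 tested genes. There were 33 positive values and a median of 0.11, with 16 genes above and 3 below both siZic2 libraries (18.1% and 16.9% of all tested genes). The smallest p there was that of Tsr1, at 123 and 121 CPM in siWiz against 87.5 and 103.5 in siZic2 (log2 0.35, SE 0.22, adjusted p = 1.00), followed by Nob1 (log2 -0.50, SE 0.32, adjusted p = 1.00). The groups did not overlap for Tsr1, whereas for Nob1 siWiz replicate 1 (49.5 CPM) lay within the siZic2 values (49.0 and 54.1).

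**Figure D3:**
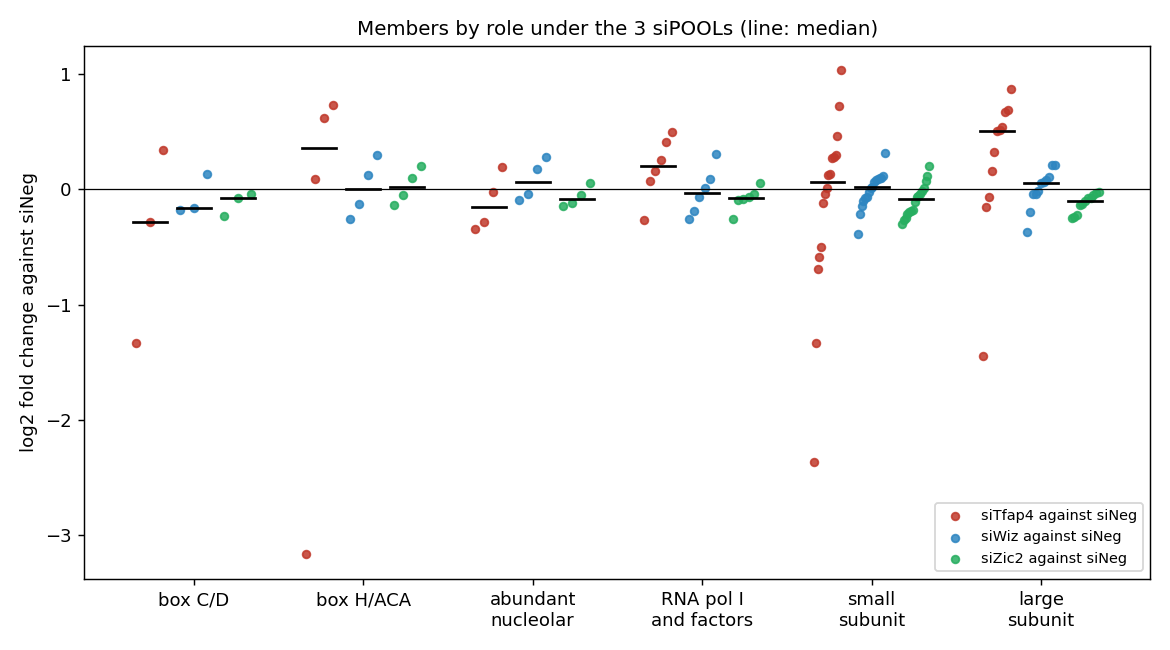
Log2 fold changes against siNeg by role for the siTfap4, siWiz and siZic2 libraries, 1 point per gene, with the median as a line. Values for siWiz (-0.39 to 0.31) and siZic2 (-0.30 to 0.20) stay near 0 in every role, while siTfap4 values run from -3.17 to 1.04; the 3 comparisons share the siNeg libraries.

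The siTfap4 libraries differed from each other in how far they lay from siNeg. Replicate 1 was farther from the siNeg mean than replicate 2 for 7 of the 7 genes called against siNeg, for 12 of the 14 called in any comparison and for 32 of all 44. The share over all tested genes was not worked out, so these counts are not read as particular to the list. Among the 14, Mrto4 and Nop16 were the exceptions. Gar1, for example, lay at a log2 distance of -4.24 in replicate 1 and -2.53 in replicate 2, Fbl at -2.01 and -0.79, and Rrp12 at 1.44 and 0.48. Nob1 was more alike, at -2.61 and -2.11. The cause of the difference between the 2 cultures was not tested.

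**Figure D4:**
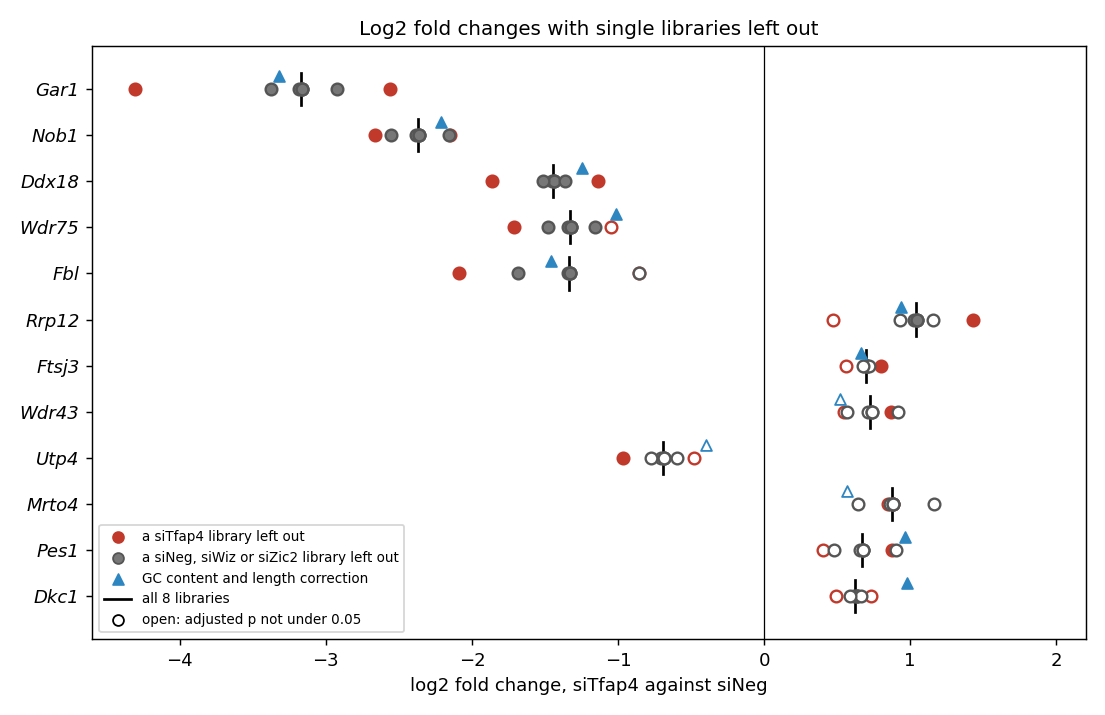
Log2 fold changes in siTfap4 against siNeg for 12 genes when each library in turn is left out (circles), with GC content and length corrected for (triangles) and with all 8 libraries (black lines); open symbols have an adjusted p that is not under 0.05. Gar1 and Nob1 stay filled throughout, whereas Rrp12 and Ftsj3 turn open in several fits.

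Base composition and transcript length differed between genes by call. Among protein-coding genes, the last 300 bases of the transcript had a median GC content of 39% in genes called lower, 51% in genes called higher and 43% in genes not called. The 5 listed genes called lower ranged from 35.3% to 49.7%, which includes the 46% of both genes called higher. Median transcript length was 2858.5 bases in genes called lower, 2368.5 in genes called higher and 3024 in genes not called. The listed genes had the other order, with 1197 to 2953 bases in the 5 called lower and 3144 and 4340 in the 2 called higher. With both corrected for among protein-coding genes, the 7 genes called kept their calls: Gar1 at -3.32, Nob1 at -2.21, Fbl at -1.46, Ddx18 at -1.25, Wdr75 at -1.01, Rrp12 at 0.93 and Ftsj3 at 0.66. Dkc1 (0.98, adjusted p = 0.00981), Pes1 (0.97, adjusted p = 0.0170), Ddx10 (0.83, adjusted p = 0.00864), Nhp2 (0.77, adjusted p = 0.0335) and Ddx21 (0.69, adjusted p = 0.0181) then passed as higher, and Nop9 (-0.92, adjusted p = 0.0192) as lower. The list's split became 7 higher and 6 lower. The count over all genes called higher rose with the correction as well, but by a smaller factor. The share of all genes called in this fit was not worked out, so the rise is not read as particular to the list. Over all genes called, the share called lower was 73.3% as fitted, 68.2% among protein-coding genes and 63.1% with the correction.

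Other genes of the pathway, in lists that hold none of the 44, were called in both directions in siTfap4 against siNeg, where 4.24% of all tested genes were called higher and 11.7% lower. Of 45 further large subunit assembly genes, 1 rose and 6 fell, a share near that background. The clearest was Nmd3, the export adaptor of the large subunit, at 16.2 and 21.3 CPM in siTfap4 against 86.7 and 81.7 in siNeg (log2 -2.16, SE 0.26, adjusted p = 0.000415). Ebna1bp2 (-1.64, adjusted p = 0.00350) and Rsl24d1 (-1.57, adjusted p = 0.00397), both assembly factors, kept their calls in every alternative run as Nmd3 did, and Rsl1d1 (-1.16, adjusted p = 0.0123) lost its call without siTfap4 replicate 1 (adjusted p = 0.108).

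Of 17 measured genes for assembly of small nucleolar and related particles, 1 rose and 4 fell, to be read against the same 4.24% and 11.7% of all tested genes, as are the counts of the next lists. Shq1, a chaperone of Dkc1 during box H/ACA assembly, stood at 5.33 and 5.04 CPM in siTfap4 against 20.5 and 22.8 in siNeg (log2 -2.06, SE 0.28, adjusted p = 0.000827), with the siTfap4 libraries far below. The ATPase gene Ruvbl2 fell as well (-1.22, adjusted p = 0.00922). Without siTfap4 replicate 1 its value was -0.97 and the call was lost (adjusted p = 0.0881). Of 16 further RNA polymerase I genes, 1 rose and 4 fell. Polr2h, a subunit shared by the RNA polymerases (-2.61, SE 0.43, adjusted p = 0.00201), Polr1d, shared with RNA polymerase III (-1.66, SE 0.30, adjusted p = 0.00350), and Taf1b, of the promoter selectivity factor (-1.66, SE 0.32, adjusted p = 0.00541), kept their calls in every alternative run. Polr2h and Taf1b were -3.63 and -2.31 without siTfap4 replicate 2. Of 40 further small subunit genes, 2 rose and 4 fell, and each of the calls among the 4 with the smallest p (Utp11, Emg1, Nol10 and Nol6) was lost without siTfap4 replicate 1. In siWiz and siZic2 none of the genes of these 4 lists was called.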

How the data were processed

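RNA of 8 libraries was measured by QuantSeq 3' FWD sequencing, per the labels' protocols. The authors deposited raw counts per gene; reads were trimmed with Trim Galore and GRCm38 was the genome, per the submitters' processing notes. Aligner, counter, annotation release and strand setting: not given in the sources used here. All 8 libraries (4 groups of 2) entered 1 edgeR 4.0.16 quasi-likelihood fit in R 4.3.3 with group means, after filterByExpr (14647 of 55421 genes) and TMM scaling. Contrasts used Benjamini-Hochberg adjustment over all tested genes, with a threshold of 0.05. Log2 fold changes have SE from the F statistic, and CPM are TMM-scaled. The p-values measure the spread between 2 libraries a group, with a coefficient of biological variation of 22.24%. DESeq2 1.42.0 and the other alternatives are in the closing section.

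The members and lists were chosen with earlier results of these data known. All 44 members could be named. Full values were given for members called in any of 6 comparisons, at most 12 in siTfap4 against siNeg, and for the 2 with the smallest p where none was called. Of other pathway lists, up to 4 called genes with the smallest p were named. Gm16433 was added to Ddx18 after seeing the data. Transcript ends and overlaps came from GENCODE M21, and promoters from RefSeq.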

Additional observations from a re-analysis of the deposited data

How the results depend on the processing

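In siTfap4 against siNeg, the 2 genes called higher became 1 with library totals alone or only the 2 groups compared, 4 without a filter beyond 1 count, with a mean of at least 5 CPM or with protein-coding genes alone, 5 with DESeq2, 7 with GC content and length corrected for, and 0 to 4 with a library left out; the 5 called lower became 3 to 6 with a library left out. Against siWiz, the 3 called higher became 1 with library totals or only the 2 groups, 5 with DESeq2, 7 with the GC and length correction and 0 to 4 with a library left out, and the 7 called lower became 3 to 8. Against siZic2, the 7 called higher became 11 with the correction and 0 to 8 with a library left out, and the 6 called lower 4 to 6. With the replicate block the genes called higher were 6, 5 and 13 against siNeg, siWiz and siZic2. The block also raised the count over all genes called higher against siNeg, from 621 to 1147. Counts over all genes from the alternative fits are not given here for siWiz and siZic2. The list counts there are therefore not read as a result about the list. Against siNeg the calls the block added included Mrto4 (0.92, adjusted p = 0.0132), Wdr43 (0.74, adjusted p = 0.0302), Utp4 (-0.70, adjusted p = 0.0319) and Dkc1 (0.63, adjusted p = 0.0416), and DESeq2 called these 4 genes as well. The replicate numbers were not taken as pairs in the main fit. Deviations of same-numbered libraries correlated across genes at -0.04 for siTfap4 and siWiz, and at 0.13 to 0.33 for the other 5 pairs of groups. Among the listed genes alone they ran from -0.40 for siTfap4 and siWiz to 0.52 for siWiz and siNeg. These values do not settle whether same-numbered libraries belong together, and the counts called depend on that choice. None of the log2 fold changes with a call reversed. Over all genes, the count called higher in siTfap4 against siNeg was 621 as fitted, 266 with only the 2 groups, 1147 with the replicate block and 956 with the correction. Counts over all genes for the other alternatives against siNeg, DESeq2 among them, are not given in this section. The changes in the list counts against siNeg are therefore not read as a result about the list either. With 2 libraries a group, changes of small size were not detectable.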

Other observations

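The MYC network, a list of 11 measured genes that are known regulators of ribosome production, had 0 genes called higher and 3 lower in siTfap4 against siNeg (edgeR, adjusted over all genes), against 4.24% and 11.7% of all tested genes. Max, the partner of MYC proteins, stood at 59.1 and 109 CPM in siTfap4 and 180 and 203 in siNeg (log2 -1.19, adjusted p = 0.0128), and lost its call without siTfap4 replicate 1 (adjusted p = 0.102). Mycn stood at 34.6 and 84.8 CPM against 138 and 141 (log2 -1.23, adjusted p = 0.0248). Without siTfap4 replicate 1 its value was -0.73 and the call was lost. The call was also lost without siNeg replicate 1 (-1.23) and without siNeg replicate 2 (-1.22). With GC content and length corrected for, Mycn was at -0.89 and missed the threshold too (adjusted p = 0.0600). Myc had low levels, 1.2 and 1.5 CPM in siTfap4 and 11.2 and 1.9 in siNeg, and its log2 difference of -2.25 (adjusted p = 0.0471) became -0.45 (adjusted p = 0.730) without siNeg replicate 1.

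The 44 genes varied between replicates by a median log2 distance of 0.28 for siTfap4 (0.40 over all genes), 0.22 for siWiz (0.30), 0.13 for siZic2 (0.25) and 0.26 for siNeg (0.36). The largest distance was 1.71 for Gar1 in siTfap4, 1.09 for Nob1 in siWiz, 0.68 for Mrto4 in siZic2 and 0.94 for Nhp2 in siNeg.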
